A study of Mus musculus with 9 samples.

Results

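The fibroblast growth factor (FGF) pathway was followed across 3 tissues of the mouse embryo. It was read through its ligands, its receptors and genes that FGF signalling switches on, among them its own inhibitors. Genes were chosen by symbol alone: every numbered *Fgf*, *Fgfr1* to *Fgfr4*, *Fgfrl1*, the *Spry* and *Spred* families, *Dusp6*, *Etv4*, *Etv5* and *Frs2*. On the array 37 of 18120 gene symbols matched, with 57 of 25697 probes. The embryos were of the CD-1 strain at E10.5, the stage at which the otic vesicle (OV), the closed epithelial sac that becomes the inner ear, lies beside the hindbrain. Total RNA from 3 pools of dissected OVs was measured beside 3 pools of periotic tissue, the mesenchyme and hindbrain around the vesicle, and 3 pools of the embryo-minus-otic group, the whole embryo without the otic region. No mutation, transgene or treatment was named for any group. Each pool was hybridised to 1 array of 1 colour, and the question was which transcripts set the OV apart from both other tissues. All groups are mixtures of cells, so fewer cells of a type and less RNA per cell cannot be told apart. The labels number the pools without saying that they came from separate animals, while the methods speak of separate litters. The *p*-values measure the spread between these pools.

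FGF ligands are secreted proteins that bind receptor tyrosine kinases together with heparan sulfate, and the activated receptor signals through the adaptor FRS2 and the RAS to ERK cascade. The ETS factors ETV4 and ETV5 are induced by the cascade, and so are its inhibitors of the DUSP, Sprouty and Spred families. In the mouse, FGF3 from the hindbrain and FGF10 from the mesenchyme take part in inducing the otic placode, and FGF signals later shape the vesicle, its sensory patches and its neurons.

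Signals are given as log2 intensity after quantile normalization, and a difference between group means is on the same log2 scale. A gene was represented by its lead probe, the one with the highest mean over the 9 arrays. A difference was called at a *q*-value under 0.05, the limma *p*-value adjusted by Benjamini-Hochberg over all 25697 probes. Detection above background on an array was taken at a detection *p* under 0.01. Between 11283 and 12160 probes passed on each array. Where no array of the dimmer group detected the probe, the fold is given as a lower bound, set by the higher of the dimmest signal above background and the probe's own. The log2 difference of such a probe is the fitted value and is no bound. Probes differ in response, so no gene's level is set against another's. The array's annotation places *Fgf22* and *Dusp6* on chromosome 10, *Fgf17* on 14, *Fgf8* on 19, and *Fgf13* and *Spry3* on X.

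The labelled tissues were checked against marker lists. Of 10 otic vesicle genes on the array, 8 were above background on all 3 OV arrays and were higher in OV than in each other group, while *Hmx2* and *Hmx3* were at background on every OV array. Of 9 hindbrain and neural tube genes, 8 were lower in OV than in periotic tissue, and 6 were above background on no OV array. The mean over that list ran from 6.19 to 6.28 over the OV arrays, from 8.27 to 8.52 over the periotic ones and from 7.05 to 7.18 over those of embryo-minus-otic. The mean of 3 epithelial genes was 10.97 to 11.09 in OV, above the 7.36 to 7.79 of periotic tissue and the 8.30 to 8.84 of embryo-minus-otic. Mesenchyme genes were still measured in OV, where their mean lay between 6.96 and 7.10, against 7.29 to 7.47 in periotic tissue and 8.0 to 8.14 in embryo-minus-otic. Against embryo-minus-otic 7 of the 8 mesenchyme genes were called lower in OV, but against periotic tissue only 3 were. The median difference of the list from periotic tissue was -0.19, so most of it did not separate these 2 groups. All 5 blood genes were lower in OV than in either other group. The 4 genes described below as higher in OV than in both groups share the direction of the epithelial and otic lists. That match follows from the rule that grouped them and is no separate result. Values for the other lists are given below beside pathway genes, and the part of any list in the differences of those genes was not tested.

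FGF genes went both ways in OV. Against embryo-minus-otic 5 of the 37 genes (13.5%) were higher in OV, where 6.58% of all genes were, and 8 (21.6%) were lower, where 6.51% were. Against periotic tissue 10 (27.0%) were higher, beside 5.81% of all genes, and 4 (10.8%) were lower, beside 6.02%. The 8 lower than embryo-minus-otic include *Fgf5* and the 10 higher than periotic tissue include *Fgf16*, both above background on no array. Between the non-otic groups 2 genes (5.41%) were higher in periotic tissue, beside 3.25% of all genes, and 5 (13.5%) were lower, beside 3.52%. Scaling each array to its median gave 6 higher and 6 lower for OV against embryo-minus-otic, beside 6.40% and 3.11% of all genes. Against periotic tissue it gave 7 higher and 4 lower, beside 3.63% and 3.996%, and with no normalization 8 were higher. Between the non-otic groups it gave 1 higher and 5 lower, beside 3.63% and 1.49%. The median difference over the 37 genes was -0.02 for OV against embryo-minus-otic, 0.03 for OV against periotic tissue and -0.06 between the non-otic groups, and over all genes each median was under 0.01 in size.

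The called genes were grouped by their place in the 3 tissues. The share of all genes with each joint pattern was not counted, so the groups are a description only. Higher in OV than in both other groups were 4 genes: the ligands *Fgf10* and *Fgf9*, the receptor *Fgfrl1* and the ETS factor *Etv5*. Between the other groups, lower in OV than in embryo-minus-otic and higher than in periotic tissue, were *Fgf8*, *Fgf17* and *Dusp6*. Lower in OV than in both were 4 genes, *Fgf13*, *Fgf15*, *Fgfr3* and *Spry3*. Higher in OV than in periotic tissue with no call against embryo-minus-otic were *Etv4*, *Spred1* and *Fgf16*. Called against embryo-minus-otic alone were *Fgf22*, higher in OV, and *Fgf5*, lower in OV. For 21 of the 37 genes OV was called against neither group.

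**Figure D1:**
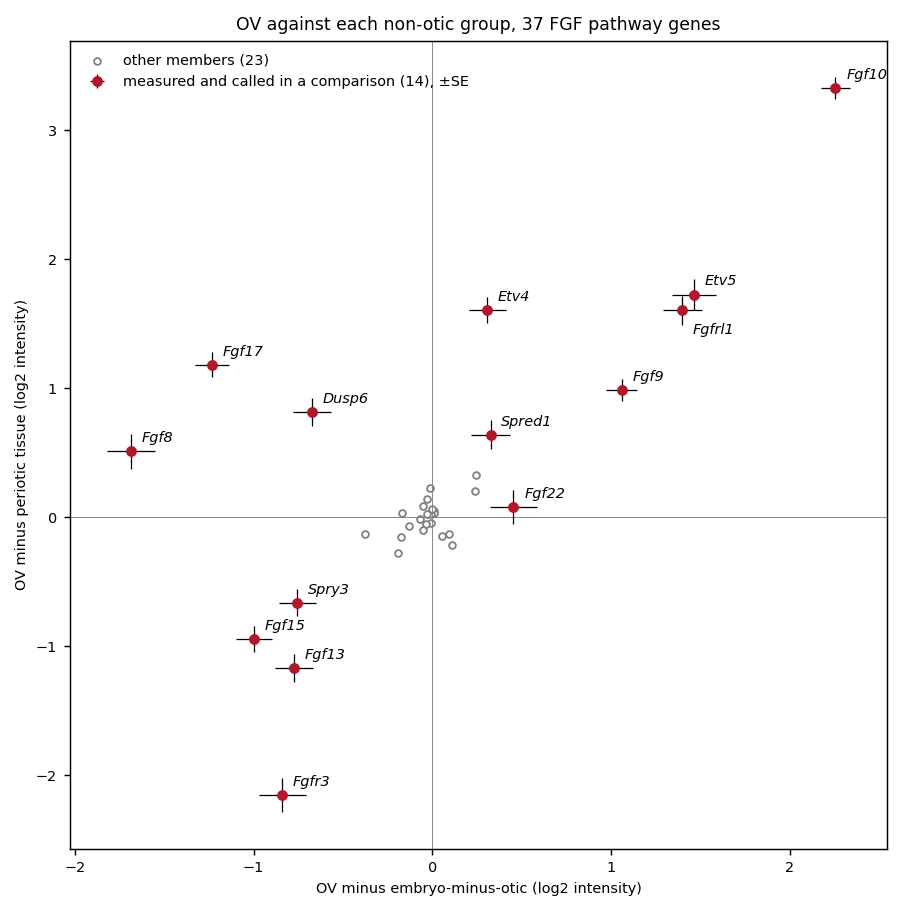
Difference in log2 intensity between OV and embryo-minus-otic (horizontal) and between OV and periotic tissue (vertical) for the lead probe of each of the 37 genes, with the genes described by array named. *Fgf10* lies farthest to the upper right, at 2.26 and 3.33, and *Fgfr3* lowest, at -0.84 and -2.15, while *Fgf8* and *Fgf17* lie to the left with a positive vertical value. Both axes use the same OV arrays, so the axes are not independent.

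The promoters of the 4 genes that were higher in OV than in both groups are shown because they moved together in these arrays. Each runs from 250 bases before to 50 bases after the transcript start, as given by RefSeq on GRCm38.p6, and reads 5′ to 3′ on the strand of the gene. Capitals mark CCGGAAGT, letters of an ETS-type site, searched on both strands. The *Fgf10* promoter lies at chr13:118714449-118714748 on the plus strand, that of *Fgf9* at chr14:58072436-58072735 (plus) and that of *Fgfrl1* at chr5:108693979-108694278 (plus). *Etv5* has 2 entries, at chr16:22438319-22438618 and chr16:22439521-22439820, both on the minus strand.
*Fgf10*: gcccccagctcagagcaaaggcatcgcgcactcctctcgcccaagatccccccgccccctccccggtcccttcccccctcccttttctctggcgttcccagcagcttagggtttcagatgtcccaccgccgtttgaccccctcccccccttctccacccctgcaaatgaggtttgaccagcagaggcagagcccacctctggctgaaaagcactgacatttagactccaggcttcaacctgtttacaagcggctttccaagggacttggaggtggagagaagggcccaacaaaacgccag
*Fgf9*: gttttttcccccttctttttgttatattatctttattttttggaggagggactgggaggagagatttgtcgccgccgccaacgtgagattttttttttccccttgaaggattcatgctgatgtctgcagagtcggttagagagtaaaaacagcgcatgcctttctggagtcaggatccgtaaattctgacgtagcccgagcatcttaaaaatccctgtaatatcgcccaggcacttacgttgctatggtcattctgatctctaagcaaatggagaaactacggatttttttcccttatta
*Fgfrl1*: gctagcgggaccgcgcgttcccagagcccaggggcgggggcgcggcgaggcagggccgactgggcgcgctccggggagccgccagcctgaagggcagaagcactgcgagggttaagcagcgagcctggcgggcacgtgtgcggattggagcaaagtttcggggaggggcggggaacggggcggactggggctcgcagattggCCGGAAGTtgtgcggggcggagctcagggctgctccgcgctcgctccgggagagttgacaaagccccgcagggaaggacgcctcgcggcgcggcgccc
*Etv5*, entry at chr16:22438319-22438618: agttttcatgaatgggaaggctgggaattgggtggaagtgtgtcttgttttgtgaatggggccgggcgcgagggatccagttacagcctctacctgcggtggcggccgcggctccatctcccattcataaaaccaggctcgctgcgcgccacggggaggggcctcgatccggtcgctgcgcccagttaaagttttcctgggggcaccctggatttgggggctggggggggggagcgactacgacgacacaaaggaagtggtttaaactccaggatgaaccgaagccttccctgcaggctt
*Etv5*, entry at chr16:22439521-22439820: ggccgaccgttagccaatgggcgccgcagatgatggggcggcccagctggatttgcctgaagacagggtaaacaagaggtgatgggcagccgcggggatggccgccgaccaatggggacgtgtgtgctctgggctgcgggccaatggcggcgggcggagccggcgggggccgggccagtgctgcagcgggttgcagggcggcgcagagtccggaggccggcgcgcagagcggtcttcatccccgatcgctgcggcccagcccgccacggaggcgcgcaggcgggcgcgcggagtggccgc
The letters stood once in the *Fgfrl1* promoter, beginning at position -48 from the start, and in none of the other sequences shown. Over the table, 27 of the 37 genes had a promoter, and the letters stood in those of 2 of them, *Fgfrl1* and *Frs2* (7.41% of genes, 5.71% of their 35 promoters), beside 1277 of all 32851 promoters (3.89%). Base composition varied within *Etv5* as well as between genes, with a GC content of 42.7% for *Fgf9*, 60.7% for *Fgf10*, 73.7% for *Fgfrl1* and 60% and 74% for the *Etv5* entries, against a median of 52.7% over all promoters. A match is a description of the letters in the window, not a binding site.

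Secreted ligands were measured sparsely. Of 18 genes, 12 had a lead probe above background on all arrays of no group, and 6 did in at least 1 group. Of the 18, 3 were higher and 4 lower in OV than in embryo-minus-otic (6.58% and 6.51% of all genes), and 5 were higher and 1 lower than in periotic tissue (5.81% and 6.02%). The 4 lower include *Fgf5* and the 5 higher include *Fgf16*, both above background on no array.

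*Fgf10* encodes a ligand of the IIIb form of FGFR2. Signals were 9.82, 9.79 and 9.83 on the 3 OV arrays, against 6.43, 6.47 and 6.56 in periotic tissue and 7.64, 7.54 and 7.49 in embryo-minus-otic. The groups did not overlap, and the lowest level was in periotic tissue. OV was 4.78-fold above embryo-minus-otic (log2 2.26 ± 0.083 SE, *q* = 1.69e-10) and 10.0-fold above periotic tissue (3.33 ± 0.083, *q* = 2.61e-12), ranking 30th and 11th highest of all probes. With the background correction of neqc, a limma method based on the detection *p*-values, the fold over periotic tissue was 17.3. Embryo-minus-otic was in turn 2.10-fold above periotic tissue (*q* = 5.57e-07). Limb bud genes, from another place where *Fgf10* is known to act, had a list mean of 6.08 to 6.16 in embryo-minus-otic. In periotic tissue the mean was 5.91 to 5.98, and both lay near background. Of the 5 genes, 3 were above background on no embryo-minus-otic array and 4 on no periotic array. Only *Hoxd12* was called between these groups (periotic minus embryo-minus-otic -0.62, *q* = 3.60e-04). *Tbx5* (0.07) and *Hoxa13* (0.03) went the other way without a call. The part of the list was not tested. *Fgf10* itself has 3 probes. A second probe gave differences of 2.11 and 3.06 for OV against the same groups, and the third, which was above background on no array of the dimmer groups, gave at least 1.66-fold and at least 1.70-fold.

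*Fgf9*, which encodes a ligand that in the ear passes from epithelium to mesenchyme, was above background on every array of OV alone. Its signal was 7.11, 7.04 and 7.27 in OV, compared with 6.19, 6.08 and 6.20 in periotic tissue and 6.09, 6.08 and 6.07 in embryo-minus-otic. All 3 OV arrays were above background, against 1 in periotic tissue and 0 in embryo-minus-otic. OV was at least 1.90-fold above embryo-minus-otic (log2 1.06 ± 0.087 SE, *q* = 4.31e-07) and 1.98-fold above periotic tissue (0.99 ± 0.087, *q* = 8.40e-07). With neqc the log2 difference from embryo-minus-otic was 1.84 and the fold over periotic tissue 3.20.

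*Fgf22*, whose product is of the same subfamily as FGF10, differed less. Its signal was 6.84, 6.60 and 7.21 in OV, against 6.82, 6.86 and 6.74 in periotic tissue and 6.52, 6.23 and 6.55 in embryo-minus-otic. OV replicate 3 was the highest array, OV replicate 1 lay within the periotic range and OV replicate 2 lay below it. OV was 1.37-fold above embryo-minus-otic (log2 0.45 ± 0.13 SE, *q* = 0.036), and the difference from periotic tissue was 0.08 (*q* = 0.858). The call against embryo-minus-otic was lost without OV replicate 1 (*q* = 0.0732), OV replicate 3 (0.181), periotic replicate 1 (0.0554) or embryo-minus-otic replicate 2 (0.145). It was also lost with neqc (0.0715), without normalization (0.480) and with only the compared groups in the fit (0.0671). Without OV replicate 3, periotic tissue was called higher than embryo-minus-otic (0.38, *q* = 0.0486). A second *Fgf22* probe was at background on every array.

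*Fgf8* and *Fgf17* encode ligands of one subfamily, with known sources at the midbrain-hindbrain boundary and elsewhere in the embryo. *Fgf8* signals were 6.75, 6.43 and 6.42 in OV, compared with 6.05, 5.92 and 6.09 in periotic tissue and 8.50, 8.26 and 7.89 in embryo-minus-otic. No periotic array was above background, and the 3 groups did not overlap. Embryo-minus-otic was 3.22-fold above OV (OV minus embryo -1.69 ± 0.14 SE, *q* = 3.29e-07) and at least 4.10-fold above periotic tissue (*q* = 3.70e-08). OV was at least 1.28-fold above periotic tissue (0.51, *q* = 0.0224). That last call was lost without OV replicate 1 (*q* = 0.122), periotic replicate 1 (0.0616) or periotic replicate 2 (0.0989), and with median scaling (0.0740) or no normalization (0.104). With neqc the fold between embryo-minus-otic and OV was 4.91, and periotic tissue minus embryo-minus-otic was -3.30 on the log2 scale, against -2.20 without it.

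*Fgf17* followed the same order with tighter arrays. It gave 6.94, 7.10 and 6.96 in OV, against 5.73, 5.84 and 5.89 in periotic tissue and 8.35, 8.28 and 8.06 in embryo-minus-otic. Again no periotic array was above background and no groups overlapped. Embryo-minus-otic was 2.35-fold above OV (OV minus embryo -1.23 ± 0.097 SE, *q* = 2.43e-07), and OV was at least 1.76-fold above periotic tissue (1.18, *q* = 3.57e-07). Against periotic tissue, embryo-minus-otic was at least 4.14-fold higher (*q* = 5.83e-10). With neqc the *Fgf17* log2 differences were 2.06 for OV minus periotic tissue and -3.63 for periotic tissue minus embryo-minus-otic, against -2.41 for the latter without it. A second *Fgf17* probe was above background on no array. Heart muscle genes had a list mean between 9.10 and 9.34 in embryo-minus-otic and between 5.65 and 5.79 in periotic tissue. In OV it ran from 5.86 to 6.50 and was highest on OV replicate 1. On that array *Fgf8* was 6.75, beside 6.43 and 6.42 on the other OV arrays. *Fgf17* was 6.94 there, close to the 6.96 of OV replicate 3. The limb bud list is given above with *Fgf10*. The part of these tissues in the *Fgf8* and *Fgf17* values was not tested.

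*Fgf15*, the mouse counterpart of human FGF19 and a gene active in the early neural tube, was lower in OV than in both groups. Its signal was 6.46, 6.45 and 6.28 in OV, compared with 7.23, 7.24 and 7.55 in periotic tissue and 7.44, 7.42 and 7.32 in embryo-minus-otic. Every OV array lay below every other array, and the non-otic groups overlapped. Embryo-minus-otic was 2.00-fold above OV (OV minus embryo -0.999 ± 0.10 SE, *q* = 4.15e-06) and periotic tissue 1.92-fold above it (*q* = 7.24e-06). The non-otic groups differed by -0.06 (*q* = 0.874). The hindbrain list moved the same way against OV. Unlike *Fgf15*, it also differed between the non-otic groups, with 7 of its 9 genes called higher in periotic tissue (list median 1.57). The part of the list was not tested.

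The 12 remaining ligands were *Fgf1* to *Fgf7* without exception, *Fgf16*, *Fgf18*, *Fgf20*, *Fgf21* and *Fgf23*, none of them above background on any array. *Fgf3*, the hindbrain ligand of otic induction, gave 6.04, 5.90 and 6.21 in OV, against 5.86, 5.89 and 5.79 in periotic tissue and 5.82, 5.80 and 5.82 in embryo-minus-otic. OV exceeded embryo-minus-otic by 0.24 (*q* = 0.128) and periotic tissue by 0.20 (*q* = 0.245). *Fgf5* (OV minus embryo -0.37, *q* = 0.00683) and *Fgf16* (OV minus periotic 0.33, *q* = 0.0231) were called although both groups were at background, so no fold is given. A probe at background does not show that its gene was off.

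FGF11 to FGF14 are homologous factors that stay inside the cell and bind voltage-gated sodium channels instead of activating FGF receptors. Only *Fgf13* of the 4 genes was above background. Its signal was 7.57, 7.68 and 7.30 in OV, compared with 8.57, 8.76 and 8.72 in periotic tissue and 8.19, 8.28 and 8.41 in embryo-minus-otic. OV was lowest on every array and periotic tissue highest. Periotic tissue was 2.24-fold above OV (OV minus periotic -1.17 ± 0.11 SE, *q* = 1.18e-06) and embryo-minus-otic 1.71-fold above OV (*q* = 9.81e-05, but 0.0585 with median scaling). The non-otic groups differed by 0.39 (*q* = 0.0418). This call was lost without OV replicate 1 (0.0577), without periotic replicate 1 (0.0562), 2 (0.167) or 3 (0.108), and without embryo-minus-otic replicate 1 (0.154) or 2 (0.0894). It was also lost with neqc (0.104), median scaling (0.0833) and no normalization (0.237). Of the other *Fgf13* probes, one was above background on 1 periotic array and the other on 1 embryo-minus-otic array, and neither was called. Hindbrain genes had the same order of list means, highest in periotic tissue and lowest in OV, and their part was not tested.

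**Figure D2:**
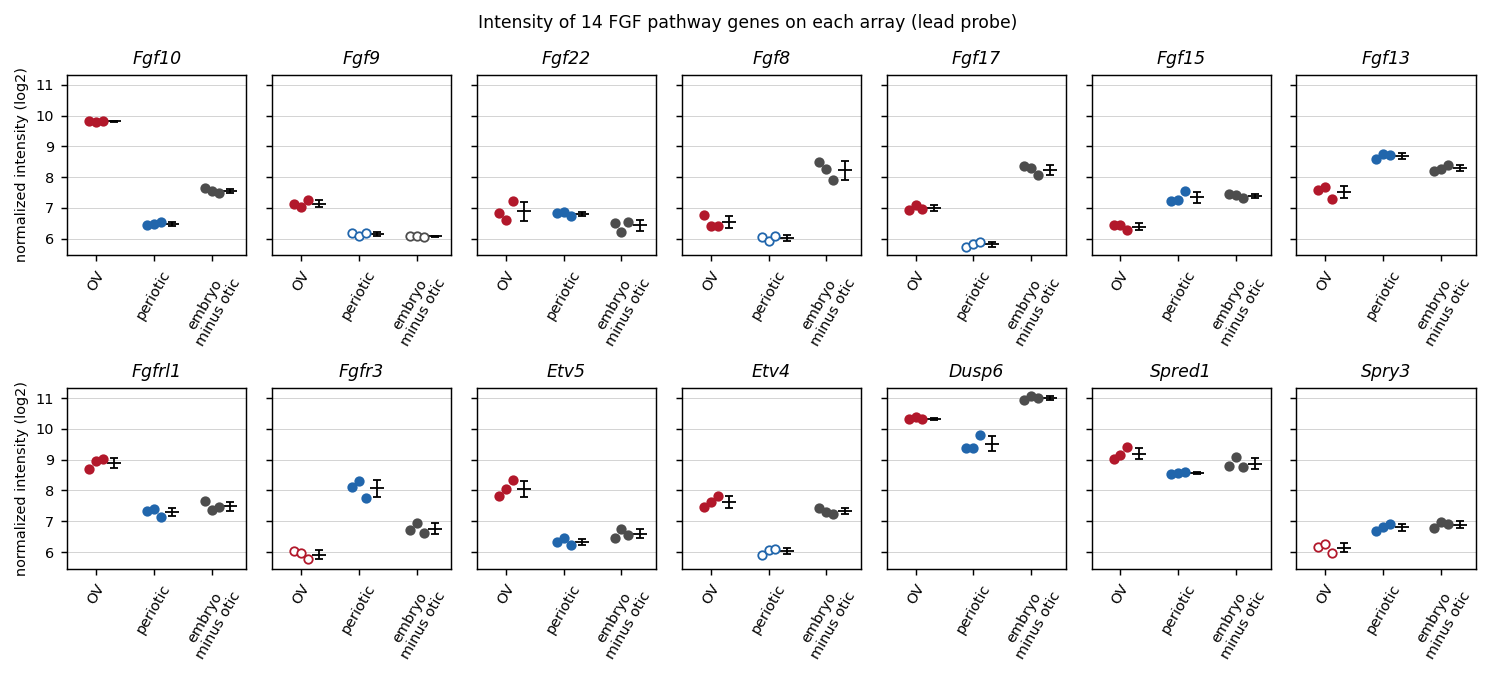
Normalized log2 intensity on each array for the 14 genes with a call in some comparison and detection on every array of some group, by tissue along the horizontal axis. Coloured points are arrays, open where the group was not above background on all 3, and the black mark is the mean ± SD (n = 3). *Fgf10* and *Etv5* are highest in OV, *Fgf8* and *Fgf17* in embryo-minus-otic, and *Fgfr3* and *Fgf13* in periotic tissue.

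The 5 receptor genes did not move together. *Fgfrl1* encodes a receptor that binds FGFs but lacks the intracellular kinase domain. Its signal was 8.70, 8.94 and 9.02 in OV, against 7.32, 7.39 and 7.14 in periotic tissue and 7.65, 7.36 and 7.46 in embryo-minus-otic. Every OV array lay above every other, and the non-otic groups overlapped. OV was 2.64-fold above embryo-minus-otic (log2 1.40 ± 0.11 SE, *q* = 2.40e-07) and 3.04-fold above periotic tissue (1.60, *q* = 4.35e-08), and the non-otic groups differed by -0.20 (*q* = 0.405). Its promoter, printed above, held the ETS-type letters.

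*Fgfr3*, the kinase receptor known for its role in bone growth and in the supporting cells of the later cochlea, had the opposite pattern. It gave 6.02, 5.97 and 5.76 in OV, compared with 8.12, 8.32 and 7.77 in periotic tissue and 6.72, 6.95 and 6.60 in embryo-minus-otic. No OV array was above background, and the 3 groups did not overlap. Periotic tissue was at least 3.65-fold above OV (OV minus periotic -2.15 ± 0.13 SE, *q* = 1.26e-08) and 2.48-fold above embryo-minus-otic (1.31, *q* = 9.90e-06), the 38th highest of all probes in the latter comparison. Embryo-minus-otic was at least 1.47-fold above OV (*q* = 3.57e-04). With neqc the log2 differences were -3.29 for OV minus periotic tissue and -1.54 for OV minus embryo-minus-otic, against -0.84 for the latter without it. The order was that of the hindbrain list, whose part was not tested. A second *Fgfr3* probe was above background on no array and gave -0.36 for OV minus embryo-minus-otic (*q* = 0.0384), a call between groups at background. It gave -0.26 for OV minus periotic tissue (*q* = 0.184). For periotic tissue minus embryo-minus-otic it gave -0.11 (*q* = 0.739), opposite in sign to the lead probe.

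*Fgfr1* and *Fgfr2*, the receptors most widely used in the embryo, were called in no comparison. Group means of *Fgfr2* were 6.68 in OV, 6.96 in periotic tissue and 6.87 in embryo-minus-otic, all above background. OV minus embryo-minus-otic was -0.19 with a 95% interval of -0.43 to 0.04 (*q* = 0.349), and OV minus periotic tissue was -0.28, from -0.51 to -0.04 (*q* = 0.157). *Fgfr1* means were 6.25, 6.41 and 6.43 in the same order, with 2 of 3 OV arrays above background. Its intervals ran from -0.40 to 0.05 against embryo-minus-otic (*q* = 0.382) and from -0.38 to 0.07 against periotic tissue (*q* = 0.508). *Fgfr4* was at background throughout. The adaptor *Frs2*, with means of 7.63, 7.73 and 7.68, had intervals from -0.27 to 0.17 and from -0.32 to 0.12 (*q* = 0.860 and 0.728). Splice forms of the receptors, which decide the ligands they bind, were not analysed here.

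The 9 feedback targets were counted with the ETS factors *Etv4* and *Etv5* among them, which are not inhibitors. Of these 9 genes, 4 were higher and 1 was lower in OV than in periotic tissue, beside 5.81% and 6.02% of all genes. Against embryo-minus-otic 1 was higher and 2 were lower, beside 6.58% and 6.51%. *Etv5*, an ETS factor induced by FGF, gave 7.81, 8.04 and 8.33 in OV, against 6.32, 6.44 and 6.24 in periotic tissue and 6.47, 6.75 and 6.57 in embryo-minus-otic. OV lay above both groups on every array. It was 2.76-fold above embryo-minus-otic (log2 1.46 ± 0.12 SE, *q* = 4.80e-07) and 3.31-fold above periotic tissue (1.73, *q* = 6.46e-08; 5.56-fold with neqc).

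*Etv4*, its close relative, stood apart in periotic tissue instead. Its signal was 7.45, 7.62 and 7.81 in OV, compared with 5.91, 6.05 and 6.10 in periotic tissue and 7.42, 7.31 and 7.22 in embryo-minus-otic. No periotic array was above background. OV was at least 2.72-fold (log2 1.61, *q* = 2.26e-08) and embryo-minus-otic at least 2.20-fold (*q* = 7.27e-07) above periotic tissue. With neqc the log2 differences were 2.59 for OV minus periotic tissue and -2.20 for periotic tissue minus embryo-minus-otic, against -1.30 for the latter without it. OV exceeded embryo-minus-otic by 0.31 (*q* = 0.0743), a difference called without OV replicate 1 (0.40, *q* = 0.0335) and with median scaling (0.42, *q* = 0.0463). The difference between the responses of *Etv4* and *Etv5* was not tested.

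*Dusp6* encodes a phosphatase that inactivates ERK. It gave 10.32, 10.37 and 10.31 in OV, against 9.38, 9.37 and 9.79 in periotic tissue and 10.95, 11.06 and 11.00 in embryo-minus-otic. The groups did not overlap, with OV in the middle as for *Fgf8* and *Fgf17*. OV was 1.76-fold above periotic tissue (log2 0.82 ± 0.11 SE, *q* = 6.34e-05), and embryo-minus-otic was 1.59-fold above OV (*q* = 4.30e-04) and 2.81-fold above periotic tissue (*q* = 2.44e-07). With median scaling the difference between OV and embryo-minus-otic was -0.50 (*q* = 0.189). A second of the 3 *Dusp6* probes gave 0.82 for OV minus periotic tissue (*q* = 0.00358) and -0.44 for OV minus embryo-minus-otic (*q* = 0.119). The third gave 0.18 (*q* = 0.521) and -0.20 (*q* = 0.403). It was above background on 1 OV array, no periotic array and 2 embryo-minus-otic arrays.

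*Spred1*, an inhibitor of RAS signalling, gave 9.02, 9.16 and 9.40 in OV, compared with 8.52, 8.55 and 8.59 in periotic tissue and 8.78, 9.07 and 8.76 in embryo-minus-otic. OV lay above periotic tissue on every array and overlapped embryo-minus-otic. It was 1.56-fold above periotic tissue (log2 0.64, *q* = 7.85e-04, but 0.110 with median scaling). The difference from embryo-minus-otic was 0.33 (*q* = 0.0739), and was called without OV replicate 1 (0.41, *q* = 0.0405) or embryo-minus-otic replicate 2 (0.42, *q* = 0.0208).

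*Spry3* was the feedback gene that was lower in OV than in both groups. It gave 6.16, 6.28 and 5.98 in OV, against 6.68, 6.80 and 6.92 in periotic tissue and 6.77, 6.98 and 6.93 in embryo-minus-otic, with 1 OV array above background. Embryo-minus-otic was 1.69-fold above OV (*q* = 8.28e-05; 2.55-fold with neqc) and periotic tissue 1.58-fold above OV (*q* = 2.97e-04). *Spry1* and *Spry4* were at background on every array. *Spry2* was above background on 1 OV and 1 embryo-minus-otic array, and *Spred2* on 2 OV and 1 embryo-minus-otic array. Neither was called, with OV minus embryo-minus-otic at -0.01 and -0.03.

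**Figure D3:**
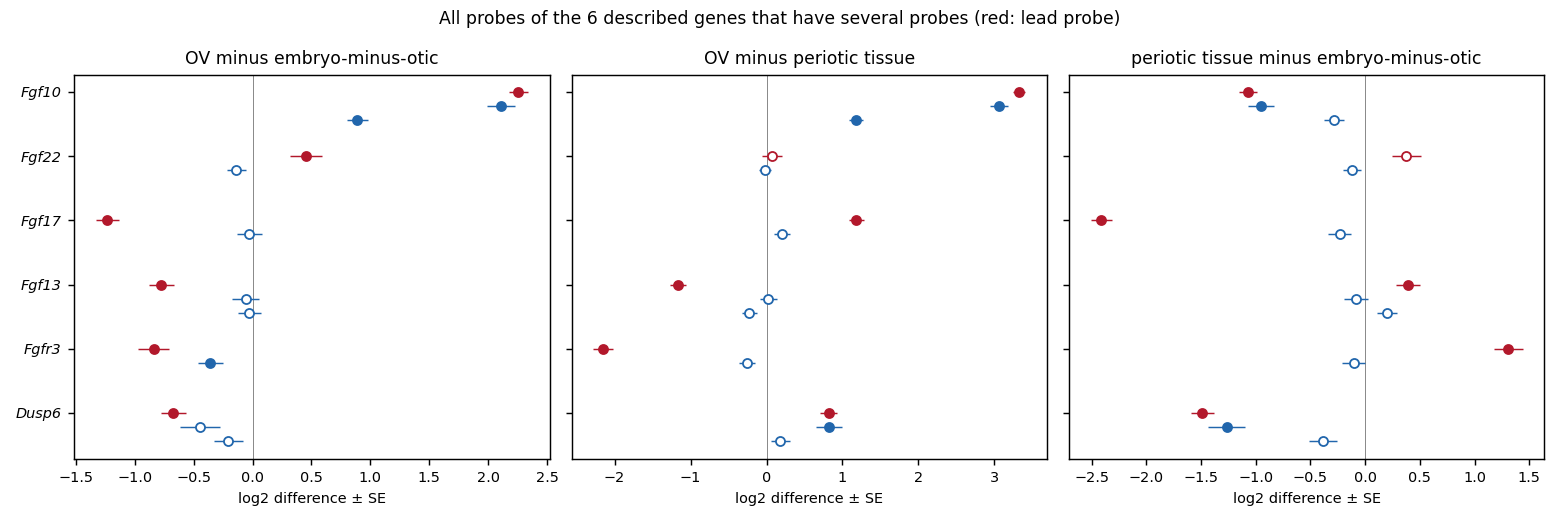
Log2 difference ± SE for each probe of the described genes with several probes, in the 3 comparisons. Red is the lead probe and blue the others, filled where *q* was under 0.05. The *Fgf10* probes agree in sign for OV against both groups, and the further *Fgf17* and *Fgf13* probes lie near 0.

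Other genes of the pathway were taken from 3 lists. Of 16 adaptors and core RAS-MAPK genes on the array, 2 were higher in OV than in each other group and none was lower. Of all genes, 6.58% were higher and 6.51% lower than in embryo-minus-otic, and 5.81% and 6.02% than in periotic tissue. These were *Gab1*, which encodes a docking protein of receptor kinases (0.87 against embryo-minus-otic, *q* = 2.37e-05, and 0.85 against periotic tissue, *q* = 3.25e-05), and *Map2k1*, which encodes the ERK kinase MEK1 (0.54, *q* = 0.00405, and 0.60, *q* = 0.00163). *Shc1* was lower in periotic tissue than in embryo-minus-otic (-0.44, *q* = 0.00916). The list medians were 0.05 against embryo-minus-otic and 0.04 against periotic tissue, beside 0.0026 and 0.00079 over all genes.

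Of 7 co-receptors and extracellular modulators, 1 was higher and 3 were lower in OV than in embryo-minus-otic (6.58% and 6.51% of all genes), and 1 was higher and 2 were lower than in periotic tissue (5.81% and 6.02%). The gene higher than both was *Sulf1*, which encodes an enzyme that trims sulfate from heparan sulfate (1.24, *q* = 4.83e-08, and 0.51, *q* = 6.23e-04). *Fgfbp3*, which encodes an FGF carrier, was lower than both (-1.75, *q* = 2.17e-07, and -1.90, *q* = 7.87e-08). *Flrt2* (-0.53, *q* = 0.00691) and *Flrt3* (-0.78, *q* = 0.00297) were called lower against embryo-minus-otic and not against periotic tissue. *Fgfbp1* was called against periotic tissue (-0.39, *q* = 0.0392), with 2 periotic arrays and no OV array above background. The list medians were -0.17 and -0.09.

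Of 12 further ERK feedback and response genes, 3 were higher and 2 were lower in OV than in embryo-minus-otic (6.58% and 6.51% of all genes), and 4 were higher and 1 was lower than in periotic tissue (5.81% and 6.02%). *Il17rd*, which encodes the FGF inhibitor Sef, was higher by 0.40 (*q* = 0.0276) and 0.79 (*q* = 1.25e-04). *Phlda1* was higher by 0.86 (*q* = 7.94e-04) and 1.44 (*q* = 4.51e-06), and the cyclin gene *Ccnd1* by 1.10 (*q* = 2.31e-06) and 0.81 (*q* = 5.65e-05). *Dusp7* was called against periotic tissue (0.62, *q* = 0.00597). Among immediate early genes, *Egr1* was lower in OV, with differences of -1.01 (*q* = 1.80e-06) and -1.28 (*q* = 1.12e-07). *Fos* was lower than in embryo-minus-otic (-0.56, *q* = 0.0119), with no OV array above background. The list medians were -0.03 and 0.14.

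**Figure D4:**
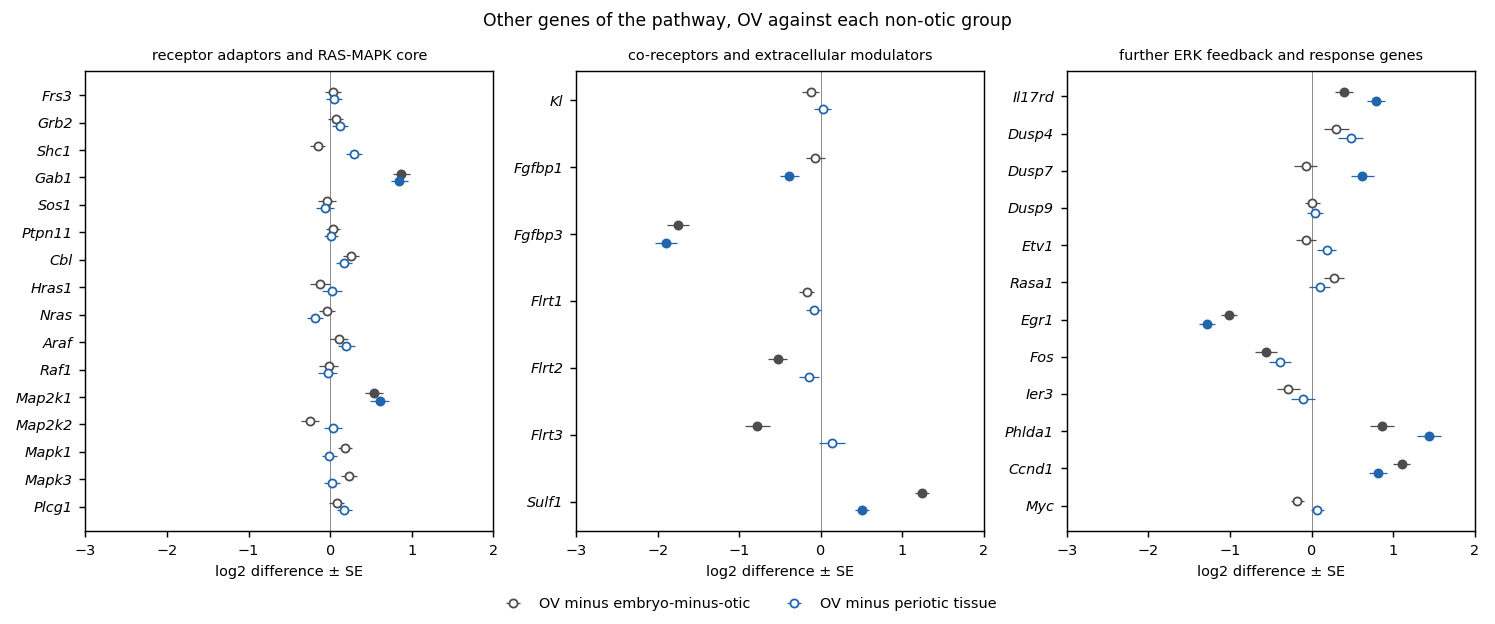
Log2 difference ± SE between OV and each non-otic group for the genes of the 3 pathway lists found on the array, filled where *q* was under 0.05. *Sulf1*, *Gab1*, *Phlda1* and *Ccnd1* lie to the right of 0 against both groups, and *Fgfbp3* and *Egr1* to the left.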

How the data were processed

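RNA from 9 pools of E10.5 CD-1 tissue, 3 for each group, was hybridised to Illumina mouse beadchips of 1 colour. The authors deposited the average intensity of each probe on each array, not normalized between arrays, and the authors' detection p-value for each probe and array. The genome build behind the array is not given in the sources used here, and symbols and chromosomes are those of the deposited annotation. Arrays were grouped by the tissue in their label.

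Intensities under 1 would have been set to 1, which changed 0 values. The log2 values were brought to one distribution by quantile normalization. A linear model was fitted to each of the 25697 probes, with a term for each of the 3 groups, using limma 3.58.1 in R 4.3.3, and each comparison was adjusted by Benjamini-Hochberg. The number of arrays limits the precision. The steps were tested on simulated data.

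All 37 matching genes are named. Values by array are given for the 14 with a call in some comparison and detection on every array of some group. The genes, pathway lists and marker lists were chosen with earlier results of these data known, so nothing here is independent support for those results. Promoters came from RefSeq on GRCm38.p6. The slide of each array was not analysed here.

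Alternatives were neqc background correction (offset 16), median scaling, no normalization and a filter keeping probes detected on every array of some group. Further ones were the compared groups alone, a replicate block and each array left out in turn. For the counts of called genes only, any probe of a gene was also used in place of its lead probe. The counts of genes above background were also taken at a detection *p* under 0.05.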

Additional observations from a re-analysis of the deposited data

How the results depend on the processing

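Of the 32 called differences of the 14 genes described by array, 26 kept direction and call under every alternative fitted to the lead probe. None of the 32 changed direction. Other probes were not part of this count and are given with their genes above. Among 480 values under alternatives, 456 kept the call and 24 lost it. The count of FGF genes higher in periotic tissue than in embryo-minus-otic was 1 in place of 2 with neqc, with median scaling and without normalization, and ranged from 1 to 3 when single arrays were left out. Differences that were not called changed sign in a few settings. *Fgf15* between the non-otic groups was 0.11 with median scaling and ranged from -0.16 to 5.35e-05 with arrays left out. *Fgf22* between OV and periotic tissue ranged from -0.087 to 0.22. Between the non-otic groups, *Fgf9* was -0.048 without normalization and *Spry3* was 0.00079 with median scaling. The causes were not tested.

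Same-numbered arrays of different groups had correlated deviations of 0.00798 to 0.182, and 5 of 9 pairs were over 0.1. All 9 arrays correlated best with their own number, a hint from the data and not from the labels, so the numbers were not taken as pairs. With a replicate block, the counts of FGF genes were 5 higher and 8 lower in OV than in embryo-minus-otic, 10 and 4 against periotic tissue, and 2 and 5 between the non-otic groups, as without it. No named call changed. Signals near background limit the 18 genes whose lead probe was above background on no array, between 5.50 and 6.21.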
